A study of Mus musculus with 27 samples.

Results

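Pax6 and Pax2, the paired-box genes that mark the optic cup and the optic stalk (OS), were followed in the OS of mouse embryos at E14 (embryonic day 14). They are 2 of the 55487 genes in the count table and were found by their Ensembl identifiers, with the version dropped. Both were measured in all 27 libraries. For each library the level is given as CPM, the count divided by the library's total in M counts (M for mega), together with the ratio of Pax6 to Pax2.

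By the study's design each of 9 embryos gave 3 pieces of the OS by laser-capture microdissection: the dorsal OS, the ventral OS and the region of retinal ganglion cell (RGC) axons. By the study's methods the 5 mutant embryos (Smarcc1-DCT-cKO) were homozygous for a floxed Smarcc1 allele (Baf155 loxP/loxP) with Dct-Cre and the Z/EG reporter, from lines kept on C57Bl6/J, and the 4 controls were littermates without Dct-Cre. The labels say only mutant or control, so whether the controls carried floxed alleles or Z/EG is not known here. Smarcc1 encodes a scaffold subunit of the BAF (SWI/SNF) chromatin remodelling complex. Dct-Cre follows the promoter of a pigment gene, so that deletion arises in cells with that promoter active and is kept by the cells derived from them. In the study Dct-Cre acted earlier in the dorsal than in the ventral OS. Batch A, as named in the labels, held control embryo 1 and mutant embryos 1 to 3, and batch B held control embryos 2 to 4 and mutant embryos 4 and 5.

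Pax6 encodes a transcription factor with a paired domain and a homeodomain that is required for formation of the eye, and it is active in progenitors of the neural retina and of the retinal pigment epithelium (RPE). Pax2 encodes a related factor of the OS, which stays active in the astrocyte progenitors of the optic nerve. The 2 factors are known to repress each other in the early optic vesicle, and this places the border between cup and stalk.

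Pax6 (ENSMUSG00000027168.21) lies on the plus strand of mm10 at chr2:105668900-105697364 and has 11694 bases of merged exons in 16 intervals. Pax2 (ENSMUSG00000004231.15) lies on the plus strand at chr19:44756045-44837871, with 5409 exonic bases in 11 intervals. Neither gene shared an exonic base with an annotated neighbour on either strand. Both genes encode a paired domain, and 300 coding bases of it are shown for each because a read can be given to the right gene only where the 2 differ. Capitals mark the bases that differ between the 2 sequences, which come from the GENCODE M21 transcripts Pax6-202 (coding bases 13 to 312) and Pax2-201 (coding bases 46 to 345).

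Pax6: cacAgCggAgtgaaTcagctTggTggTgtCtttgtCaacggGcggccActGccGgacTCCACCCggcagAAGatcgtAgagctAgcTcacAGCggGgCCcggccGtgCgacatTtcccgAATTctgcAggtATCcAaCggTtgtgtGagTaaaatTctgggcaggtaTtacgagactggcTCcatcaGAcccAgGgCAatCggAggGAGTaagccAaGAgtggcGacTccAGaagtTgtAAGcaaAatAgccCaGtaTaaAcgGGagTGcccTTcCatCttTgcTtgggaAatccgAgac

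Pax2: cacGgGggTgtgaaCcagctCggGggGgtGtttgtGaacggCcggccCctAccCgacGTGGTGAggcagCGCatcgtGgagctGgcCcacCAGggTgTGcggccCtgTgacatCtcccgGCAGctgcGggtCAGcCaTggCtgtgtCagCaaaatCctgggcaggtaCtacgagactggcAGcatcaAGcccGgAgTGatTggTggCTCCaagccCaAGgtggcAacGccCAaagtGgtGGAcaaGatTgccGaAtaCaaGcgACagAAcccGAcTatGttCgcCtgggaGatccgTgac

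Of the 300 aligned positions, 207 (69.0%) were identical and 93 differed. The longest run shared by the coding sequences of the 2 genes was 12 bases, whereas the reads were 150 bases long.

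The libraries held 10.9 to 34.0 M counts each, at which 1 read equals 0.0294 to 0.0917 CPM. A count of 0 allows a level of up to 3 counts, or 0.0883 to 0.275 CPM. The cDNA was amplified by PCR and carried no molecular identifiers, so these limits cover counting error only. Smarcc1 ranged from 75.9 to 289 CPM in dorsal control and from 2.26 to 107 CPM in dorsal mutant libraries. Dorsal mutants 1 and 2, at 94.9 and 107 CPM, lay within the control range of this targeted gene, and edgeR's adjusted p for it was 0.953. In the ventral OS Smarcc1 ranged from 75.7 to 198 CPM in controls and from 14.7 to 64.4 CPM in mutants. Its log2 fold change there was −2.37 ± 0.53 (SE), with an edgeR p of 0.00078 and an adjusted p of 0.999. By p it ranked 2 of the 16139 genes tested. In the axon region Smarcc1 ranged from 50.1 to 242 CPM in controls and from 1.86 to 44.9 CPM in mutants. The log2 fold change was −2.46 ± 1.23 (SE), at an edgeR adjusted p of 0.880. Dorsal control 3 stood apart from the other dorsal controls in its erythroid and mesenchyme genes and in Pax2 itself. The dorsal genotype results of Pax6 and Pax2 are therefore given with and without it, a choice made after seeing the data. Counts over the whole gene do not separate recombined from intact transcripts. In such bulk samples, fewer cells of a type and less RNA per cell cannot be told apart.

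The genotype comparison in the dorsal OS asked whether loss of Smarcc1 altered the balance of cup and stalk factors there. Pax6 was higher and Pax2 was lower in the dorsal mutants. The mean of Pax6 was 4.94 times the control mean, and the mean of Pax2 was 9.50 times lower than in controls. The Pax6 groups did not overlap, whereas those of Pax2 overlapped through 1 control library. Neither gene passed the test over all genes, and the exact permutation test over libraries gave the smallest p it can give for Pax6.

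Pax6 in the dorsal control libraries 1 to 4 was 106, 39.0, 47.4 and 53.0 CPM. In the dorsal mutant libraries 1 to 5 it was 227, 357, 291, 396 and 246 CPM. The lowest mutant library therefore stood above the highest control, and the means were 61.5 ± 30.5 CPM (SD, n = 4) and 303 ± 71.8 CPM (SD, n = 5). Of all 16145 genes tested in the dorsal OS, 1.31% were likewise higher in every mutant than in every control library, and 1.61% were lower in every mutant. The fitted log2 fold change of Pax6 was 2.27 ± 0.38 (SE), with a p of 7.1e-05 and an adjusted p of 0.104 by edgeR's quasi-likelihood test with Benjamini-Hochberg adjustment over all genes. To be called, a gene needed a change beyond 0.58 on the log2 scale in either direction and an adjusted p under 0.05, which 0.0124% of the genes met in this comparison, and Pax6 ranked 11 by p. The exact permutation test (two-sided) of log2(CPM + 1) gave a p of 0.00794, and 0.025 when libraries were exchanged within batches only, the smallest values possible in both cases. Within batch A alone the log2 fold change was 1.45, against 1 control library, and within batch B alone it was 2.80. The call for Pax6 depended on the tool, since the adjusted p was 2.14e-06 with DESeq2, 0.00336 when genes of low count were kept and 0.0222 with edgeR's newer method. Without dorsal mutant 1 or 2, whose Smarcc1 was in the control range, the log2 fold change was 2.39 and 2.25. Without dorsal control 3 it was 2.22 ± 0.41 (SE), at an edgeR adjusted p of 0.384, and exact permutation (two-sided) gave 0.0179, the smallest possible for 3 against 5 libraries.

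Pax2 in the dorsal control libraries 1 to 4 was 38.8, 33.1, 0.826 and 39.2 CPM. In the dorsal mutant libraries 1 to 5 it was 0.0917, 1.79, 3.89, 3.17 and 5.78 CPM, where the lowest value is 1 read. Control 3, with 14 reads of Pax2, thus fell inside the mutant range, while the other 3 controls, at 33.1 CPM or more, were all above the highest mutant. The means were 28.0 ± 18.3 CPM (SD, n = 4) and 2.94 ± 2.15 CPM (SD, n = 5). The fitted log2 fold change was −3.18 ± 1.79 (SE), with an edgeR adjusted p of 0.938, and exact permutation (two-sided) gave 0.0794, or 0.10 within batches. Within batch A alone the log2 fold change was −4.32, and within batch B alone, which holds control 3, it was −2.41. Without control 3 the remaining controls averaged 37.0 ± 3.44 CPM (SD, n = 3), the log2 fold change was −3.57 ± 1.61 (SE), at an edgeR adjusted p of 0.895, and exact permutation (two-sided) gave 0.0179, again the smallest possible. Control 3 was the only control inside the mutant range and was left out after its Pax2 level was seen. Leaving it out removes the overlap by construction, so this permutation p is no independent evidence of a difference.

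**Figure D1:**
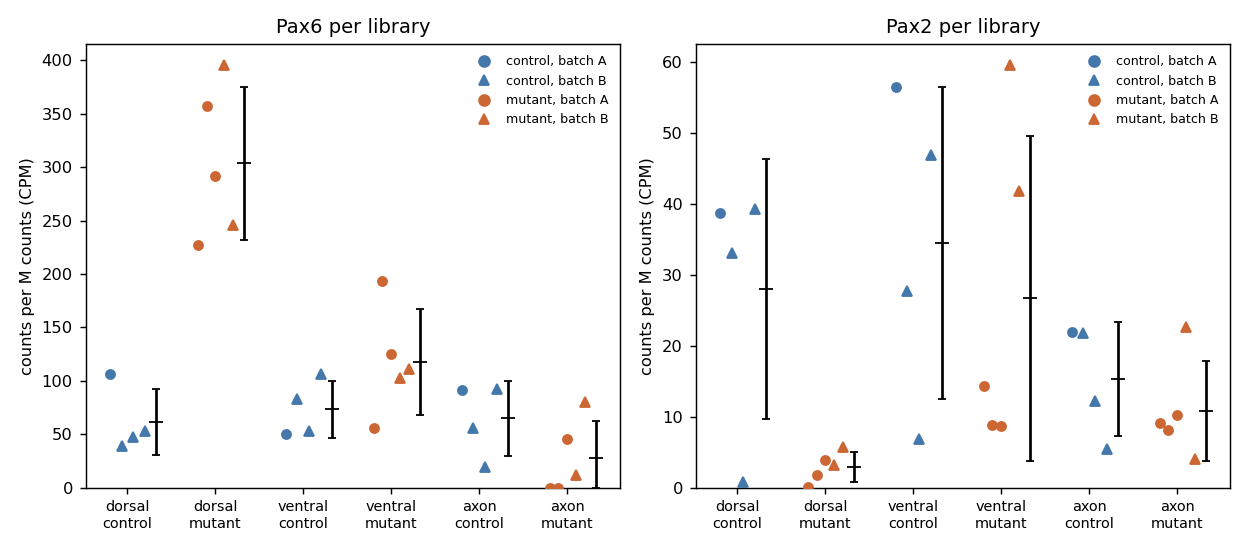
Level of Pax6 (left) and Pax2 (right) in CPM in each of the 27 libraries, by region and genotype, with circles for batch A and triangles for batch B. Black bars give the group mean and SD, cut at 0. The 5 dorsal mutant libraries lie between 227 and 396 CPM of Pax6, above all dorsal controls, and at or below 5.78 CPM of Pax2, where 1 dorsal control also lies.

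Marker genes of the cell types that a captured piece could hold also differed between the dorsal libraries of the 2 genotypes. The summed level of 9 astrocyte progenitor genes, with Pax2 left out, ranged from 3317 to 5693 CPM in dorsal controls and from 1737 to 2968 CPM in dorsal mutants. Vim alone averaged 1754 CPM in controls, where the sum averaged 4141 CPM. Of these 9 genes, 8 were lower in mutants and 1, Id3, was higher, at a mean of 763 against 600 CPM. For 11 genes of periocular mesenchyme, the connective tissue around the OS, the ranges were 1162 to 10142 CPM and 56.5 to 352 CPM, and none of the 11 was at 0 throughout a dorsal group. The 5 genes of neural crest melanoblasts summed to 92.3 to 346 CPM in controls and 0 to 50.7 CPM in mutants, with Foxd3 at 0 in both groups and Sox10 at 0 in the mutants. Sox10 was also low in controls, from 0 to 20.6 CPM with a mean of 5.20 CPM. Ednrb alone averaged 160 CPM in controls, where the sum averaged 197 CPM. Of the 4 genes tested, 3 were lower in mutants and 1, Mc1r, was higher, at a mean of 5.10 against 0.0168 CPM. The 11 genes of RPE and melanin synthesis summed to 39.5 to 5222 CPM in controls and 3634 to 13726 CPM in mutants, with Rpe65, a gene of mature RPE, at 0 in both. Pmel alone averaged 2440 CPM in controls and 5371 CPM in mutants, where the sums averaged 3020 and 8447 CPM. The 8 genes of neural retina progenitors summed to 89.0 to 283 CPM in controls and 122 to 1951 CPM in mutants, where mutant 2 was highest. Lens and surface ectoderm genes, which would mark Pax6-positive tissue outside the OS, summed to at most 26.1 CPM in controls and 38.7 CPM in mutants, with Cryaa, Crygd, Foxe3 and Krt5 at 0 in both groups and Bfsp1 also in the mutants. Control 3, the library with little Pax2, had the highest mesenchyme sum (10142 CPM) and the lowest RPE sum (39.5 CPM) of the dorsal controls. Its erythroid sum was 22545 CPM against 728 to 2713 CPM in the other 3. Its astrocyte progenitor sum, with Pax2 left out, was also the highest of the dorsal controls (5693 CPM). The part of these cell types in the levels of Pax6 and Pax2 was not tested.

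**Figure D2:**
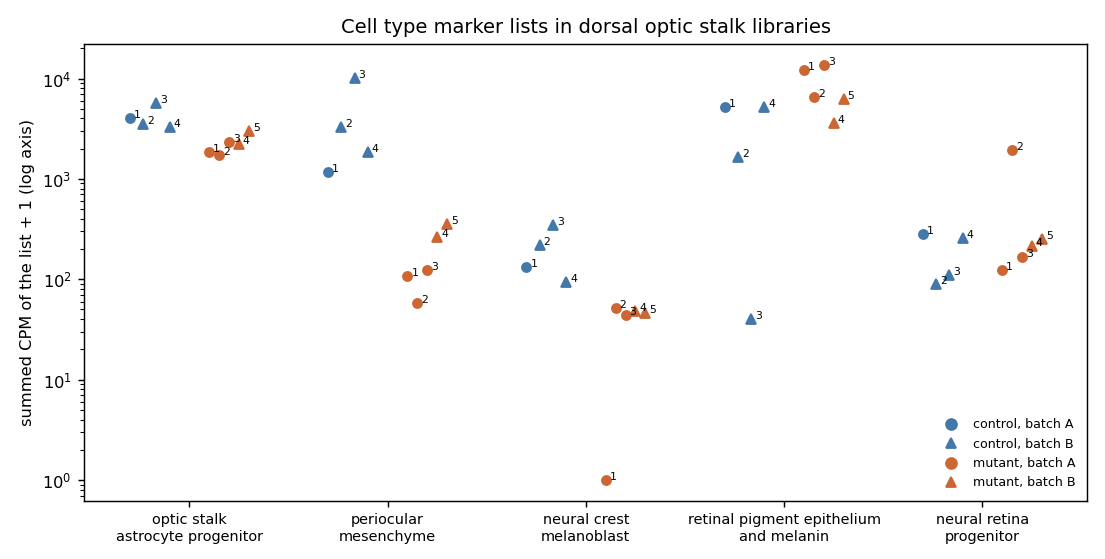
Summed CPM of 5 cell type marker lists (plus 1, log axis) in the 9 dorsal libraries, with the replicate number beside each point, circles for batch A and triangles for batch B. The mesenchyme, melanoblast and astrocyte progenitor sums of the 4 controls stand above those of the 5 mutants, and control 3 has the highest mesenchyme sum (10142 CPM) and the lowest RPE and melanin sum (39.5 CPM).

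In the ventral OS the genotypes overlapped for both genes. Pax6 was 50.6, 83.3, 53.0 and 107 CPM in the ventral controls 1 to 4 and 56.1, 193, 125, 103 and 111 CPM in the ventral mutants 1 to 5. Mutants 2, 3 and 5 exceeded the highest control, and the means were 73.4 ± 26.6 CPM (SD, n = 4) and 118 ± 49.7 CPM (SD, n = 5). The log2 fold change was 0.72 ± 0.51 (SE), with an edgeR adjusted p of 0.999 and 0.135 by two-sided exact permutation, and the estimate was 1.30 within batch A alone and 0.41 within batch B alone. edgeR called 0% of genes in this comparison, where 515 had an unadjusted p under 0.05 and DESeq2 and voom called 335 and 5. Pax2 was 56.5, 27.8, 6.91 and 46.8 CPM in the ventral controls and 14.4, 8.85, 8.74, 59.6 and 41.9 CPM in the ventral mutants. The 3 mutants of batch A were the low ones and the 2 of batch B the high ones, and the means were 34.5 ± 21.9 CPM (SD, n = 4) and 26.7 ± 22.9 CPM (SD, n = 5). The log2 fold change of Pax2 was −0.52 ± 1.07 (SE), with an edgeR adjusted p of 0.999 and an exact permutation p of 0.595 (two-sided). It was −2.40 within batch A alone and 0.92 within batch B alone, and without ventral control 1 it was 0.89, so that no direction was settled.

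In the axon region Pax6 was present in every control library but was not detected in 2 of the 5 mutants. The axon controls 1 to 4 had 91.2, 56.1, 19.3 and 92.7 CPM, and the axon mutants 1 to 5 had 0, 0, 45.9, 11.5 and 80.5 CPM. The zeros of mutants 1 and 2 came from libraries of 17.5 and 23.5 M counts, where 0 reads allow up to 0.172 and 0.128 CPM. These 2 libraries also had the fewest genes with a read of all axon libraries, 9225 and 9699 against 10076 to 14118 in the controls, and the part of this in the Pax6 zeros was not tested. The means were 64.8 ± 34.8 CPM (SD, n = 4) and 27.6 ± 35.1 CPM (SD, n = 5), with a log2 fold change of −1.20 ± 1.94 (SE), an edgeR adjusted p of 0.976 and an exact permutation p of 0.143 (two-sided). Within batch A alone the log2 fold change was −2.58, within batch B alone −0.20. It was −0.25 without axon control 1, −2.79 without axon mutant 3 and −2.44 without axon mutant 5, so that its size rested on single libraries. edgeR called 0% of genes here, where 531 had an unadjusted p under 0.05 and DESeq2 and voom called 1246 and 53. Pax2 was detected in all 9 axon libraries, at 22.0, 21.8, 12.2 and 5.40 CPM in controls and 9.16, 8.14, 10.3, 22.7 and 4.04 CPM in mutants. Its groups overlapped widely, and the log2 fold change was −0.51 ± 1.96 (SE), at an edgeR adjusted p of 1.00, −1.30 within batch A alone and 0.01 within batch B alone.

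The comparison of regions asked whether the dorsal and ventral OS and the axon region differ within 1 genotype, and libraries of the same number and genotype were taken as 1 embryo, which no label states outright. In the controls no direction was shared by all embryos. Pax6 was higher in the dorsal than in the ventral piece in 1 of 4 control embryos, and Pax2 likewise in 1 of 4. The fitted log2 differences between regions in controls ran from −0.25 to −0.01 for Pax6 and from −0.32 to 0.95 for Pax2, and neither gene was called. Blocked by embryo, they ran from −0.33 to 0.16 for Pax6 and from −0.83 to 0.78 for Pax2. Without dorsal control 3 the difference of Pax2 between dorsal and ventral controls was 0.079, against −0.32 with it. Of all genes, 0% were called by edgeR between dorsal and ventral controls (1087 at an unadjusted p under 0.05, 224 by DESeq2 and 19 by voom), 0.0692% between dorsal and axon and 0.0316% between ventral and axon. The smallest exact permutation p among these 6 tests was 0.257 (two-sided).

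In the mutants the regions differed in the same order in every embryo for Pax6. The dorsal piece had more Pax6 than the ventral piece in 5 of 5 mutant embryos, and the ventral piece had more than the axon piece in 5 of 5. Dorsal and ventral mutant libraries did not overlap, since the lowest dorsal value was 227 CPM and the highest ventral value 193 CPM. A share of 0.606% of all genes were higher in every dorsal than in every ventral mutant library. The log2 difference of Pax6, dorsal minus ventral, was 1.39 ± 0.31 (SE), with a p of 0.00054 and an edgeR adjusted p of 0.216. edgeR called 0% of genes here, where 2007 had an unadjusted p under 0.05 and DESeq2 and voom called 451 and 27. Blocking by embryo, the difference of Pax6 was 1.46 ± 0.25 (SE), with an edgeR adjusted p of 0.255. The exact permutation p was 0.00794 (two-sided), and sign flips within the 5 embryos gave an exact p of 0.0625, the smallest they can give. The adjusted p was 0.000902 with DESeq2 and 0.0382 with the newer edgeR method. Against the axon region the dorsal mutants were also higher without overlap, as were 3.12% of all genes, by a log2 difference of 3.24 ± 1.49 (SE), at an edgeR adjusted p of 0.212, where 0.545% of genes were called. Blocking by embryo gave 5.67 ± 2.35 (SE), with an edgeR adjusted p of 0.541. With limma voom and with the newer edgeR method its adjusted p was 0.0448 and 0.00361. Between the ventral and the axon pieces of the mutants the log2 difference was 1.87 ± 1.51 (SE), at an edgeR adjusted p of 0.656, where 0.443% of genes were called. Blocking by embryo gave 4.03 ± 2.65 (SE). Genes in general also ran higher in the OS pieces than in the axon pieces of the mutants. The median log2 difference over all genes tested was 0.33 for dorsal minus axon and 0.37 for ventral minus axon. Blocked by embryo, these medians were 1.42 and 1.46. Axon mutant libraries had a mean of 10146 genes with a read, against 13576 in dorsal and 14095 in ventral mutants. The part of this in the Pax6 differences was not tested.

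Pax2 ran the other way between the dorsal and ventral pieces of the mutants. It was lower in the dorsal than in the ventral piece in all 5 mutant embryos, and in the dorsal than in the axon piece in 4 of 5. The highest dorsal mutant, at 5.78 CPM, was below the lowest ventral mutant, at 8.74 CPM, as was so for 0.928% of all genes. The mean of the ventral mutants was 9.06 times that of the dorsal mutants. The log2 difference, dorsal minus ventral, was −3.13 ± 1.42 (SE), with a p of 0.0451 and an edgeR adjusted p of 0.387, while exact permutation (two-sided) gave 0.00794. With the embryo as a block it was −3.30 ± 1.63 (SE), with an edgeR adjusted p of 0.927, and only DESeq2 gave an adjusted p under the threshold, 0.030. Between the dorsal and axon pieces the log2 difference was −2.04 ± 1.84 (SE), with an edgeR adjusted p of 0.701 and 0.0159 by two-sided exact permutation, but an exact p of 0.125 by sign flips within embryos. The blocked value was −2.46 ± 2.20 (SE). Between the ventral and axon pieces it was 1.10 ± 1.48 (SE), with an edgeR adjusted p of 0.903. In all, 18 exact tests of the 2 genes were run, 6 of them with a p under 0.05 when libraries were exchanged freely. Of these, 5 compared regions of the mutants, and sign flips within embryos, which cannot go below 0.0625 with 5 embryos, gave exact p of 0.0625 in 4 of them and 0.125 in the other.

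**Figure D3:**
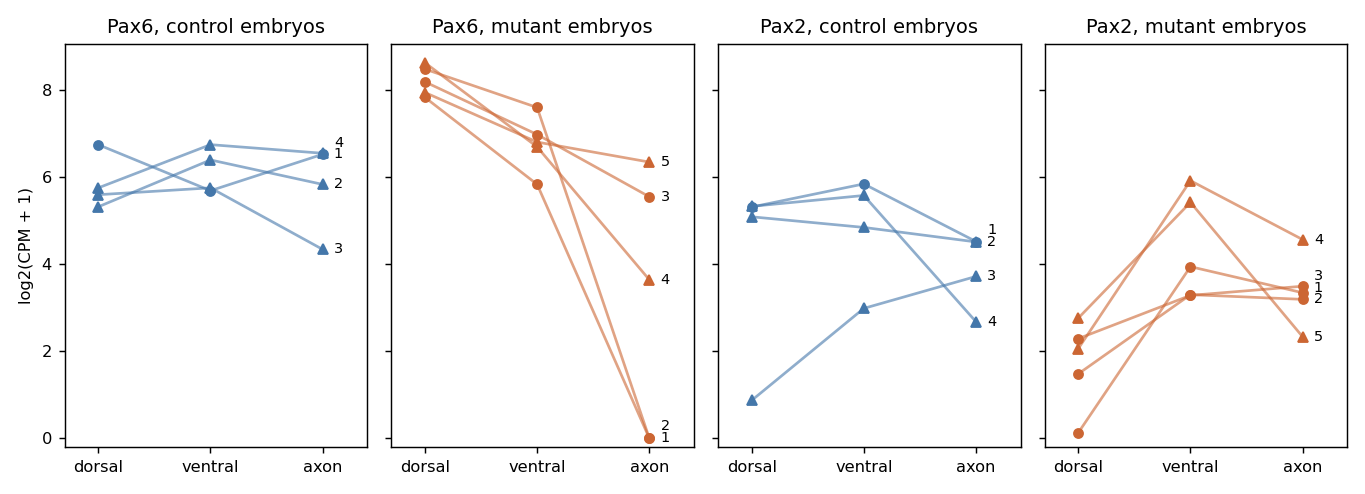
Level of Pax6 (left 2 panels) and Pax2 (right 2 panels) as log2(CPM + 1) in the dorsal, ventral and axon pieces of each embryo. Each line joins the 3 libraries of 1 embryo, numbered at its right end, with circles for batch A and triangles for batch B. In all 5 mutants Pax6 is highest in the dorsal and lowest in the axon piece and Pax2 is lower in the dorsal than in the ventral piece, and the control lines cross.

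Whether the genotype effect itself differed between regions was tested as an interaction over all 27 libraries. For Pax6 the effect in the dorsal OS exceeded that in the ventral OS by 1.59 ± 1.54 on the log2 scale (SE), with an edgeR adjusted p of 1, and that in the axon region by 3.52 ± 1.56 (SE), with a p of 0.032 and an edgeR adjusted p of 0.362. For Pax2 the effect in the dorsal OS was below that in the ventral OS by a log2 difference of −2.75 ± 1.90 (SE) and below that in the axon region by −2.69 ± 1.89 (SE), with edgeR adjusted p of 1 and 0.740. The ventral and axon effects differed by 1.93 ± 1.56 (SE) for Pax6 and by 0.05 ± 1.87 (SE) for Pax2. Neither gene was called in an interaction, where 0.00612%, 0.0245% and 0.00612% of all genes were. Blocking by embryo, the difference of the Pax6 effects between dorsal and axon was 4.49, with an edgeR adjusted p of 0.960.

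**Figure D4:**
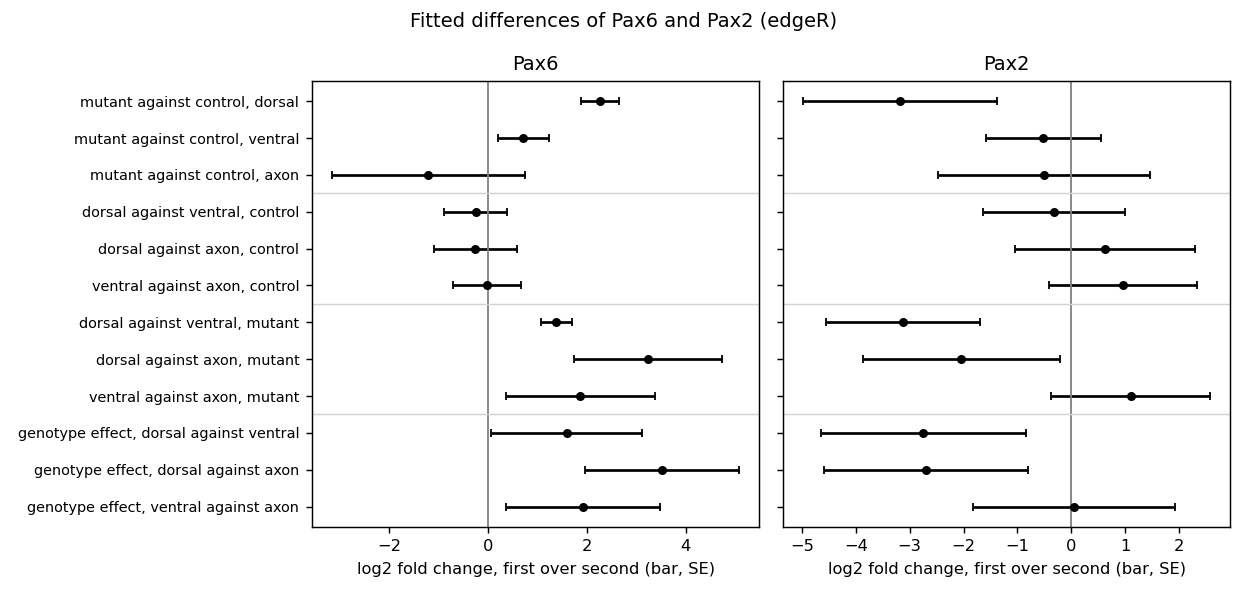
Fitted log2 fold changes of Pax6 (left) and Pax2 (right) in each comparison, with points for edgeR's estimate and bars for its approximate SE. The first 3 lines compare genotypes within a region, the next 6 compare regions within a genotype and the last 3 are differences of genotype effects. The dorsal genotype difference is 2.27 for Pax6 and −3.18 for Pax2, and the differences between regions in controls all lie within 1 of 0.

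The ratio of the 2 genes was taken per kb of exon, since longer genes collect more reads, and it is given with no test because both of its parts are described above. In dorsal controls 1 to 4 the ratio of Pax6 to Pax2 was 1.27, 0.545, 26.6 and 0.625. The high value belongs to control 3, so that Pax6 exceeded Pax2 per kb of exon in 2 of 4 libraries. This count depends on the divisor, since per kb of coding sequence the 4 ratios were 2.44, 1.05, 51.2 and 1.20. In dorsal mutants 2 to 5 the ratio was 92.4, 34.7, 57.7 and 19.7. Dorsal mutant 1 had 2477 reads of Pax6 and 1 of Pax2, a ratio of 1146 with an exact 95% counting interval of 205 to 45272. Thus Pax6 was the more abundant gene per kb in all 5 dorsal mutants, with a median ratio of 57.7 against 0.947 in dorsal controls, and control 3 lay above the lowest mutant. Without control 3 the median of the dorsal controls was 0.625.

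In the ventral groups and the axon controls the ratio stayed nearer to 1. Ventral controls 1 to 4 had ratios of 0.414, 1.39, 3.55 and 1.05, and ventral mutants 1 to 5 had 1.80, 10.1, 6.64, 0.797 and 1.23. Medians were 1.22 and 1.80, and Pax6 was the more abundant gene per kb of exon in 3 of 4 and 4 of 5 libraries. Per kb of coding sequence the ratio of ventral mutant 4 was 1.54, so the count in ventral mutants also depends on the divisor. Axon controls had 1.92, 1.19, 0.732 and 7.94, and axon mutants 3 to 5 had 2.07, 0.234 and 9.22. In axon mutants 1 and 2, without a read of Pax6, Pax2 per kb was at least 115-fold and 138-fold higher than Pax6, counted against 3 reads in each library. The ratio therefore spanned both extremes within the mutants, with 1 read of Pax2 in the dorsal piece of mutant embryo 1 and 0 reads of Pax6 in its axon piece.

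**Figure D5:**
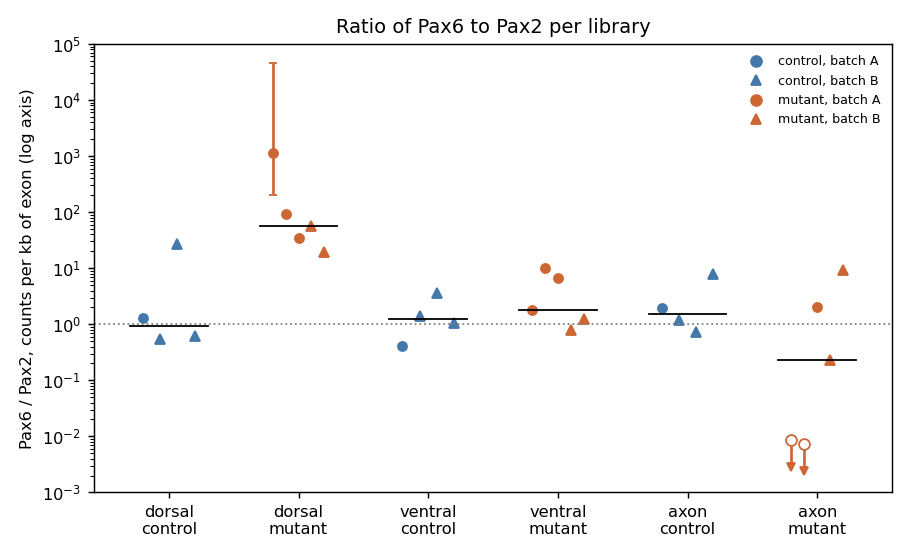
Ratio of Pax6 to Pax2 per kb of exon in each library on a log axis, by region and genotype, with circles for batch A, triangles for batch B and horizontal lines for medians. The bar at dorsal mutant 1 is the exact 95% counting interval, and open circles with arrows are upper limits where Pax6 had 0 reads. The 5 dorsal mutants lie at 19.7 or higher, and the other groups centre between 0.234 and 1.80.

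Ordered by mean level, Pax6 ran from dorsal mutant (303 CPM) over ventral mutant (118 CPM), ventral control (73.4 CPM), axon control (64.8 CPM) and dorsal control (61.5 CPM) to axon mutant (27.6 CPM). Only the step from the first to the second group was free of overlap between libraries. For Pax2 the order was ventral control (34.5 CPM), dorsal control (28.0 CPM), ventral mutant (26.7 CPM), axon control (15.3 CPM), axon mutant (10.9 CPM) and dorsal mutant (2.94 CPM), and every pair of neighbours in it overlapped.

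Of the other genes of the pathway in the dorsal genotype comparison, edgeR called 0 in the lists that follow, and the lists' counts at an unadjusted p under 0.05 are given beside them. By the same rule edgeR called 2 of all genes, DESeq2 547 and voom 68. At an unadjusted p under 0.05 edgeR had 864 of all 16145 genes in this comparison, the background for the lists' counts. These values include dorsal control 3, and the lists were not refitted without it. The Pax family lists 7 further genes, all in the table, of which only Pax5 and Pax9 had enough reads to be tested. Pax5, a close relative of Pax2, ranged from 0 to 0.0416 CPM in dorsal controls and from 0 to 33.3 CPM in dorsal mutants, and Pax9 from 0 to 4.96 CPM and at 0 in all mutants. Factors of the eye field and optic cup that act with Pax6 showed 5 of 10 tested genes higher and 5 lower, with a median log2 fold change of −0.02 against −0.04 over all genes, and 0 at an unadjusted p under 0.05. Meis2 and Meis1, homeodomain factors that act on Pax6, had log2 fold changes of −1.17 ± 0.66 (SE) and 2.55 ± 1.95 (SE). The dorsal groups of Meis2 ranged from 39.6 to 267 CPM in controls and from 23.8 to 79.8 CPM in mutants, and those of Meis1 from 0 to 54.0 CPM and from 16.8 to 97.3 CPM, with overlap in both.

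Factors of the OS and ventral eye that act with Pax2 showed 3 of 12 genes higher and 9 lower in dorsal mutants, with a median log2 fold change of −0.98 and 3 of the lower ones at an unadjusted p under 0.05. Epha4, an Eph receptor of axon guidance, was 313, 275, 221 and 235 CPM in the dorsal controls 1 to 4 and 62.1, 116, 57.4, 40.8 and 66.5 CPM in the dorsal mutants 1 to 5. Every mutant was below every control, and its log2 fold change was −2.08 ± 0.38 (SE), at an edgeR adjusted p of 0.192. Nr2f1, an orphan nuclear receptor needed for the optic nerve, ranged from 369 to 637 CPM and from 187 to 400 CPM, with a log2 fold change of −0.77 ± 0.26 (SE, edgeR adjusted p = 0.918). In the ventral and axon regions the medians of the same list were −0.02 and −0.17, against −0.08 and −0.29 over all genes, with 5 and 6 of 12 genes higher.

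Of the RPE-fate factors, 2 of 5 were higher and 3 lower in dorsal mutants, with a median log2 fold change of −0.42 and 1 of the lower ones, Sox9, at an unadjusted p under 0.05. The 2 higher ones, Otx2 and Mitf, are also in the RPE and melanin marker list. There 10 of 10 tested genes were higher, with a median log2 fold change of 2.16 and 2 at an unadjusted p under 0.05. Mitf averaged 94.9 CPM in dorsal controls and 225 CPM in dorsal mutants. Otx2, a homeodomain factor needed for RPE identity, was 48.3, 0, 0 and 64.3 CPM in dorsal controls and 248, 160, 369, 144 and 158 CPM in dorsal mutants. Every mutant library was above every control, as for Pax6, and its log2 fold change of 2.69 ± 1.57 (SE) had an edgeR adjusted p of 0.948. Sox9, a factor of RPE and of astrocyte progenitors, ranged from 237 to 286 CPM in controls and from 90.6 to 192 CPM in mutants, a log2 fold change of −0.82 ± 0.33 (SE, edgeR adjusted p = 0.918).

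Among 8 genes known to be activated by Pax6, 5 of the 7 tested were higher and 2 lower in dorsal mutants, with a median log2 fold change of 0.25 and 3 of the higher ones at an unadjusted p under 0.05. Atoh7, the proneural factor that RGCs require, had 0 reads in all 4 dorsal controls and 24.0, 405, 1.77, 43.0 and 0 CPM in dorsal mutants 1 to 5, with an edgeR adjusted p of 0.844. Atoh7 was without a read in dorsal mutant 5, where Pax6 was at 246 CPM, and in all axon libraries.

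The genes whose log2(CPM + 1) followed each member most closely over the 27 libraries were sought among 9041 genes with a mean of at least 10 CPM. These correlations describe libraries that share embryos, 3 to each, and batches. Pax6 went most closely with Wdr5 (Pearson r = 0.79), a subunit of histone H3K4 methyltransferase complexes, Cxxc5 (0.79), a zinc finger protein, Mdh2 (0.77), the mitochondrial malate dehydrogenase, and Trpm3 (0.77), a cation channel. It ran most against Gnai2 (−0.67), an inhibitory G protein subunit, and Sparc (−0.67), a secreted matrix protein. Trpm3 averaged 154 ± 114 CPM (SD, n = 4) in dorsal controls and 413 ± 221 CPM (SD, n = 5) in dorsal mutants. In the same groups Wdr5 averaged 30.7 and 89.6 CPM, and Mdh2 658 and 842 CPM. Cxxc5 differed little there, at 53.7 ± 38.8 and 58.4 ± 57.3 CPM (SD). It averaged 14.8 ± 24.0 CPM (SD, n = 5) in axon mutants, the group with the lowest mean of Pax6.

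Pax2 went most closely with Il17rd (Pearson r = 0.71), an inhibitor of FGF signalling, Cp (0.71), the ferroxidase ceruloplasmin, Pam (0.69), a peptide-amidating enzyme, and Megf10 (0.67), a phagocytic receptor of glia. It ran most against Gpc3 (−0.65), a glypican, and Sulf2 (−0.61), a heparan sulfate sulfatase. Il17rd averaged 75.7 ± 58.4 CPM (SD, n = 4) in dorsal controls and 14.1 ± 14.8 CPM (SD, n = 5) in dorsal mutants, and Megf10 averaged 65.6 ± 52.2 CPM and 12.7 ± 16.7 CPM. Gpc3 averaged 255 ± 200 CPM and 368 ± 135 CPM in these groups. Sulf2, like Pax2, had a lower mean in dorsal mutants, at 46.6 ± 13.2 CPM against 154 ± 220 CPM in dorsal controls. Pax6 and Pax2 themselves had a Pearson r of −0.17 over the 27 libraries. The antisense transcript Gm20395, which overlaps the body of Pax2 without sharing exonic bases, averaged 15.4 ± 12.0 CPM (SD, n = 4) in dorsal controls and 0.226 ± 0.505 CPM (SD, n = 5) in dorsal mutants, and it was at 0 in dorsal control 3.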

How the data were processed

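The authors captured the tissue by laser on frozen sections, amplified its cDNA and sequenced single-end reads. Per the labels and the study's methods, reads were aligned to mm10 with STAR and counted with HTSeq. Versions, annotation release and strand setting are not given in the sources used here. The deposited values are raw counts of reads for each gene, unscaled and unfiltered, and no pair of libraries was identical. Symbols and positions came from GENCODE M21, which matched 55227 of the 55487 identifiers.

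CPM was the count divided by the library total. The 16330 genes that exceeded 10 counts in 3 or more of the 27 libraries were fitted with edgeR 4.0.16 in R 4.3.3 (TMM, quasi-likelihood F-test, two-sided, robust, legacy). Genotypes were compared within a region on 9 libraries with batch as a term, regions within a genotype without covariates, and interactions on all libraries with batch. SEs were derived from the F statistic and are approximate. All tests of the fits were adjusted over all genes. DESeq2 1.42.0, limma 3.58.1 (voom), the newer edgeR quasi-likelihood method (legacy off), other scalings, filters and blocks were alternatives. The fits were tested on simulated data.

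The 3 libraries with 1 number and genotype were taken as 1 embryo from the study's design and the sample titles, though no label names the embryo. The embryo block, the counts of embryos and the sign flips rest on this. Their deviations from group means correlated at −0.0773 to 0.170, over 0.1 in 3 of 27 pairs. Besides Pax6, Pax2 and Smarcc1, named genes were the 2 with the smallest dorsal genotype p in each pathway list, and the 4 most and 2 least correlated with each member. Gm20395 was added after its values were seen. A gene that the rule names and a marker at 0 are not reported here. Members, lists and tests were chosen with earlier results of these data known.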

Additional observations from a re-analysis of the deposited data

Results flagged for a closer look

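Of 18 sets of 4 or 5 libraries (Pax6, Pax2 and their ratio in each group), 1 held a library far from the rest by Dixon's test, and chance gives about 1 in 20. Pax2 in dorsal control 3 was 0.87 as log2(CPM + 1), while the other 3 dorsal controls lay between 5.09 and 5.33. The gap took a share of 0.946 of the whole range, where the critical value is 0.829. The same library had the highest mesenchyme, erythroid and astrocyte progenitor sums and the lowest RPE sum among dorsal controls. The part of these in its Pax2 level was not tested.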

How the results depend on the processing

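Of 402 alternative fits of the 24 differences of Pax6 and Pax2, 371 kept their direction and their side of the threshold, 8 passed the threshold where the reported fit had not, and 23 changed direction. Those that passed were dorsal Pax6 between genotypes with DESeq2 (2.23), without the count filter (2.25) and with the newer edgeR method (2.24), Pax6 between dorsal and ventral mutants with DESeq2 (1.41) and the newer method (1.40), Pax2 between them with DESeq2 (−3.13), and Pax6 between dorsal and axon mutants with voom (7.15) and the newer method (3.25). The changes of direction all concerned differences far from any threshold. Ventral Pax2 between genotypes, −0.52 as reported, was 0.044 with voom and 0.92 in batch B alone, and ran from −0.96 to 0.89 with 1 library left out. Axon Pax6 between genotypes, −1.20 as reported, ran from −2.79 to −0.25 with 1 library left out and was −6.75 with the replicate block. Axon Pax2 between genotypes, −0.51 as reported, was 0.011 in batch B alone. In controls, with 1 library left out, the difference of Pax2 between dorsal and ventral pieces ran from −0.66 to 0.079, that of Pax6 between dorsal and axon from −0.67 to 0.031, and that of Pax6 between ventral and axon from −0.31 to 0.24. This last difference was also 0.020 with RLE scaling and with DESeq2, 0.039 with voom and 0.16 with the replicate block. The difference of the Pax2 genotype effects between ventral and axon was −0.016 with RLE and DESeq2, −0.018 with the newer edgeR method, −0.049 with voom, and from −0.33 to 0.43 with 1 embryo left out. The exact test of Pax2 between dorsal genotypes had a difference of −2.41, and of −3.50 without control 3, an alternative chosen after seeing the data. The exact test of Pax6 between dorsal and axon controls had a difference of 0.04 in log2(CPM + 1), against −0.17 on TMM library sizes and −0.046 without mitochondrial counts. The median log2 ratio of Pax6 to Pax2 in dorsal controls was −0.17 per kb of exon, 0.78 per kb of coding sequence and 0.95 without division by length. The cause was not tested except for the ratio, which the length divisor shifts by construction. The replicate block, by embryo between regions and by number between genotypes, changed no call (dorsal Pax6 between genotypes was 2.50 with the replicate block), and numbers do not pair embryos across genotypes. With 4 or 5 libraries a group, 1 control library in batch A and Pax2 at 1 to 87 reads in dorsal mutants, depth and the number of embryos limit the precision. Among all genes, edgeR called 2 in the dorsal genotype comparison, DESeq2 547, voom 68 and the newer edgeR method 40.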
